A study of Mus musculus with 12 samples.

Results

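The proteasome genes were taken as the rows of the deposited expression table whose symbol was Psm followed by a letter from a to g and a number, which gave 48 of the 53882 genes of the table. They encode the core particle of the proteasome, its regulatory particle, the subunits that replace the core's active sites in the immunoproteasome, the other activators, 1 inhibitor and the dedicated assembly chaperones. Of the 48, 46 passed the filter on low values (at least 10 normalized counts in at least 3 libraries), among 13392 genes tested. The other 2 were Psmb11, the catalytic subunit of the thymus form of the core, and Psmd10, the assembly chaperone gankyrin. Both were listed at 0 in every library.

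The proteasome is the main protease of the cytosol and nucleus for proteins marked with ubiquitin. Its core is a barrel of stacked alpha and beta rings, in which 3 kinds of beta subunit cut peptide bonds and the alpha rings gate the entrance. The regulatory particle binds the barrel's ends, recognizes ubiquitin, removes it and unfolds the substrate with a ring of ATPases. In the immunoproteasome, which interferon induces, the active-site subunits Psmb5, Psmb6 and Psmb7 are replaced by Psmb8, Psmb9 and Psmb10. In heart muscle the proteasome turns over sarcomere and regulatory proteins.

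The 12 libraries were made from total RNA of hearts of C57BL/6 mice aged 4 months, 3 mice in each of 4 groups. All mice carried the CIP-KI-flox allele, in which a CIP transgene at the Rosa locus lies behind a floxed stop. Ctrl mice were littermates with this allele alone, and CIP-OE mice also carried the aMHC-Mer-Cre-Mer transgene, a tamoxifen-activated Cre driven by a promoter of cardiomyocytes. CIP is cardiac ISL1-interacting protein, the product of Mlip. Mice of both genotypes had either a sham operation or transverse aortic constriction (TAC), a narrowing of the aorta against which the left ventricle must pump, and the hearts were taken 8 weeks after surgery. The study places the tamoxifen injections 2 weeks after surgery. It mentions no mice with Cre but without the CIP allele, so overexpressed CIP and activated Cre cannot be told apart. Whether the Ctrl mice were injected is not clearly stated, so a part of the drug cannot be told apart either. Mice are named by genotype and operation (Ctrl-Sham and CIP-OE-Sham, Ctrl-TAC and CIP-OE-TAC), and single libraries by their titles, in which KI stands for CIP-OE.

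Each library held between 6990445 and 7704812 reads assigned to genes. Mlip lay between 823 and 1322 normalized counts in the 6 Ctrl libraries and between 1910.5 and 8232 in the 6 CIP-OE libraries, without overlap between the genotypes, and KI_Sham_3737 was the lowest of the CIP-OE libraries. The Ctrl-TAC libraries stood apart in base composition: genes of high GC content (over 55.36%) deviated from those of low GC content (under 43.76%) by 0.604 to 0.943 on the log2 scale in the 3 Ctrl-TAC libraries and by -0.563 to 0.016 in the other 9. Cell type markers differed as well. Between Ctrl-TAC and Ctrl-Sham, 6 of 6 endothelial markers and 3 of 6 fibroblast markers rose, 3 of 8 cardiomyocyte markers fell and 1 rose, and none of the 7 tested leukocyte markers passed, where 20.7% of all genes rose and 20.2% fell. With each library's deviations corrected for GC content, 2 endothelial and 2 fibroblast markers were higher, 5 cardiomyocyte markers and 1 leukocyte marker (Csf1r) lower, and no cardiomyocyte marker higher. Of 5 tested smooth muscle and pericyte markers, Tagln and Pdgfrb rose and Rgs5 and Myh11 fell. After the correction Myh11 alone of these was called, as lower. In bulk tissue, fewer cells of a type and less RNA per cell cannot be told apart, for the proteasome genes as for the markers.

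In Ctrl-Sham hearts the highest level per length belonged to an activator and not to a core subunit. Per kilobase of annotated exon, Psme4 had 442 ± 30.3 normalized counts in Ctrl-Sham (SD, n = 3). It encodes PA200, an activator that caps the core without ATPases and is known for promoting the degradation of acetylated histones. The alpha subunit Psma6 followed with 426 ± 11.4 and the beta subunit Psmb2 with 265 ± 22.7, and the distance between Psme4 and Psma6 is within their spread. Dividing by the longest transcript instead left Psme4 and Psma6 in the same order, at 571 and 504. The catalytic subunits of the standard core were at 143 ± 7.48 (Psmb6), 134 ± 13.985 (Psmb7) and 36.0 ± 18.2 (Psmb5) normalized counts per kilobase. Each immunoproteasome subunit had a lower mean than its counterpart, at 5.86 ± 2.58 (Psmb9), 54.9 ± 6.20 (Psmb10) and 12.9 ± 2.97 (Psmb8). With the longest transcript as length, the ratio of Psmb8 to Psmb5 was 0.385, 0.796 and 1.07 in the 3 Ctrl-Sham libraries. Psmb8 was therefore not below Psmb5 in the last of them, Ctrl_Sham_4033. At the low end lay the core assembly chaperone Psmg3 with 2.73 ± 0.878 and the testis alpha subunit Psma8 with 3.13 ± 1.09.

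Pressure overload in control hearts moved proteasome genes in both directions. Between Ctrl-TAC and Ctrl-Sham, 14 of the 46 tested members passed an adjusted p of 0.05 (limma on log2 of the value plus 1, Benjamini-Hochberg over the 13392 genes), 7 higher and 7 lower. That is 30.4% of the members, while 40.9% of all genes tested passed (20.7% higher and 20.2% lower), so the share was not above the background. Their median log2 fold change was 0.08 and that of all genes 0.002. The 7 that rose were Psmg4, Psmb10, Psmb4, Psmb6, Psmd8, Psmd11 and Psmc4, and the 7 that fell were Psme4, Psme1, Psmc6, Psmd14, Psmd1, Psma1 and Psmd12. In 18 members, or 39.1%, the 3 Ctrl-TAC values did not overlap the 3 Ctrl-Sham values, against 50.8% of all genes.

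Under pressure overload, CIP-OE hearts differed from control hearts in 7 members, 3 higher (Psmc6, Psme4 and Psmd1) and 4 lower (Psmb3, Psmb10, Psmb6 and Psmb4). These are 15.2% of the members, and 18.4% of all genes tested passed in this comparison (9.11% higher and 9.27% lower). The groups did not overlap in 12 members, or 26.1%, against 36.1% of all genes. Both comparisons use the same 3 Ctrl-TAC libraries, so a value that was high or low there enters them with opposite signs. All 4 lower calls ended without Ctrl_TAC_3586, and likewise without KI_TAC_3579, each leaving 2 members called. Markers moved in this comparison too: 3 of 6 endothelial markers were lower (median of the 6 -0.475). Of 6 fibroblast markers Col1a1 was lower (log2 fold change -0.92), and of 5 tested smooth muscle and pericyte markers Pdgfrb was (-0.38). None in these lists was called higher, although 2 fibroblast and 2 smooth muscle and pericyte markers had positive log2 fold changes. Of 8 cardiomyocyte markers Pln was higher and Mb lower, and no leukocyte marker passed. None of these marker calls remained after the GC correction, and their part in the proteasome values was not tested.

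**Figure D1:**
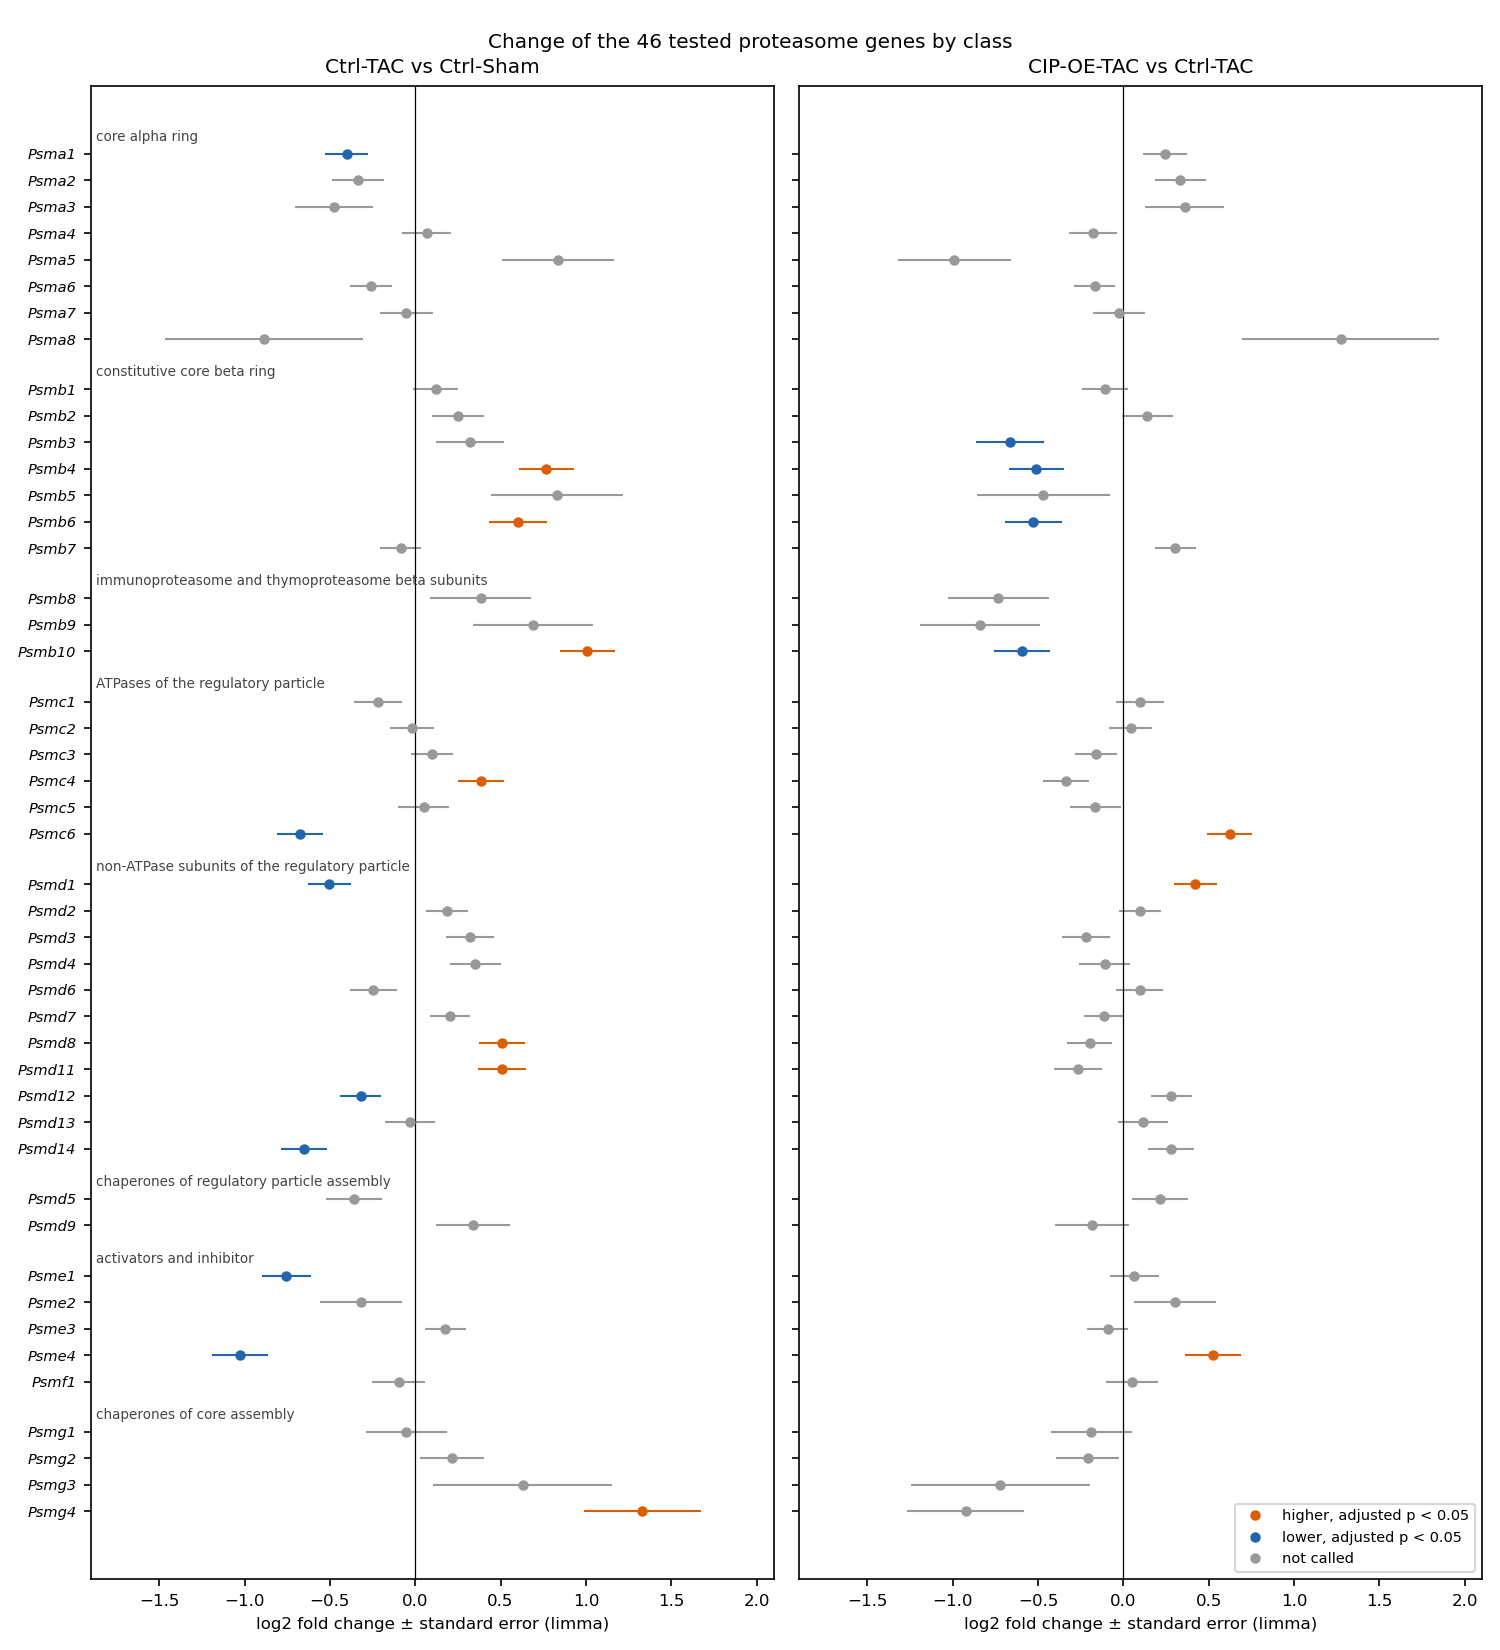
Log2 fold change with standard error (limma, horizontal axis) of the 46 tested proteasome genes, grouped by class, for Ctrl-TAC against Ctrl-Sham (left) and CIP-OE-TAC against Ctrl-TAC (right). Orange and blue points passed an adjusted p of 0.05 as higher and lower, 7 and 7 on the left and 3 and 4 on the right, and both panels share the Ctrl-TAC libraries.

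The beta ring of the core, which carries the active sites, held 2 of the rises and none of the falls. It has 7 constitutive genes, and of all genes tested 20.7% rose and 20.2% fell. Psmb4 had 176, 178 and 181 normalized counts in the 3 Ctrl-Sham libraries, 362, 279.6 and 279 in Ctrl-TAC, 172, 178 and 261 in CIP-OE-Sham and 243, 202 and 198 in CIP-OE-TAC. Psmb4 is a structural beta subunit, and all 3 of its Ctrl-TAC values lay above all Ctrl-Sham and all CIP-OE-TAC values. It rose with TAC in control hearts (log2 fold change 0.77 ± 0.16 (SE), adjusted p = 0.000899) and was lower in CIP-OE-TAC than in Ctrl-TAC (log2 fold change -0.51 ± 0.16 (SE), adjusted p = 0.0327). The latter call ended without Ctrl_TAC_3586 (adjusted p = 0.147), KI_TAC_3579 (adjusted p = 0.112) or KI_TAC_3587 (adjusted p = 0.104).

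The normalized counts of Psmb6 were 258, 259.5 and 283 in Ctrl-Sham, 542, 377 and 325 in Ctrl-TAC, 251, 244 and 333 in CIP-OE-Sham and 305, 245 and 297 in CIP-OE-TAC. This subunit carries the caspase-like site. Its Ctrl-TAC values, the highest from Ctrl_TAC_3586, were above all Ctrl-Sham values (log2 fold change 0.60 ± 0.17 (SE), adjusted p = 0.00774), and this call ended without Ctrl_TAC_3586 (adjusted p = 0.0547). They were also above all CIP-OE-TAC values (log2 fold change -0.53 ± 0.17 (SE), adjusted p = 0.0346), and there the call ended in 4 of the 12 fits that left out 1 library, with adjusted p up to 0.192 without Ctrl_TAC_3586.

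The other catalytic subunits of the standard core did not pass. For Psmb5, the Ctrl-Sham hearts gave 48.7, 32.6 and 15.9 normalized counts, the Ctrl-TAC hearts 89.6, 44.6 and 37.3, the CIP-OE-Sham hearts 34.5, 34.6 and 60.1 and the CIP-OE-TAC hearts 47.0, 29.1 and 40.4. Psmb5 carries the chymotrypsin-like site, and its Ctrl-Sham and Ctrl-TAC values overlapped (log2 fold change 0.83 ± 0.39 (SE), adjusted p = 0.0993). Psmb5 passed without Ctrl_Sham_4010 (1.18, adjusted p = 0.0284). Between the genotypes under TAC it gave -0.47 (adjusted p = 0.428). Psmb7 had 513, 446 and 421 normalized counts in the 3 Ctrl-Sham libraries, 433, 415 and 448 in Ctrl-TAC, 575, 529 and 599 in CIP-OE-Sham and 516, 561 and 524 in CIP-OE-TAC. The trypsin-like subunit Psmb7 had overlapping values in Ctrl-TAC and Ctrl-Sham (log2 fold change -0.09 ± 0.12 (SE), adjusted p = 0.586). Its CIP-OE-TAC values lay above its Ctrl-TAC values without passing (log2 fold change 0.30 ± 0.12 (SE), adjusted p = 0.0779).

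The normalized counts of Psmb3 were 92.3, 109 and 75.3 in Ctrl-Sham, 146, 108 and 94.6 in Ctrl-TAC, 81.3, 78.9 and 92.8 in CIP-OE-Sham and 83.0, 58.1 and 76.1 in CIP-OE-TAC. Psmb3, a structural subunit, overlapped between Ctrl-TAC and Ctrl-Sham (log2 fold change 0.32 ± 0.20 (SE), adjusted p = 0.202). It was lower in CIP-OE-TAC than in Ctrl-TAC without overlap (log2 fold change -0.67 ± 0.20 (SE), adjusted p = 0.0251), and this call ended without Ctrl_TAC_3586 (adjusted p = 0.135) or KI_TAC_3579 (adjusted p = 0.131). Psmb1 and Psmb2 passed in neither comparison. Over the 7 constitutive beta subunits the median log2 fold change was 0.32 for Ctrl-TAC against Ctrl-Sham, with 6 of 7 positive, and -0.47 for CIP-OE-TAC against Ctrl-TAC (0.275 and -0.11 after the GC correction).

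The catalytic subunits Psmb5 and Psmb6 are among the members whose promoters hold an antioxidant response element, the sequence through which the transcription factors Nfe2l1 and Nfe2l2 are known to regulate proteasome genes together. RefSeq promoter windows (GRCm38.p6) matched 40 of the 48 members by symbol, and the 250 bases before each start were searched on both strands. The element, spelled TGACNNNGC, was in 5 of 40 members (12.5%) and in 10.16% of all 32851 windows. The 5 stretches are shown because their genes include rises and falls. Each is 30 bases on the strand that carries the element, with the element in capitals:
Psmd9: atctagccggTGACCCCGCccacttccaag
Psmb6: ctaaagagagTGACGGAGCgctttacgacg
Psmd12: gtctgaggggggcaaatgTGACACAGCaga
Psmc6: tgagcaatgccTGACTTAGCtactggctgg
Psmb5: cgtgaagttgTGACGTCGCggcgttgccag

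They lie at chr5:123228149-123228178 (Psmd9, plus strand), chr11:70525338-70525367 (Psmb6, plus strand), chr11:107479278-107479307 (Psmd12, minus strand), chr14:45329587-45329616 (Psmc6, minus strand), chr14:54618023-54618052 (Psmb5, minus strand). In Ctrl-TAC against Ctrl-Sham, Psmb6 rose (log2 fold change 0.60), Psmd12 and Psmc6 fell (-0.32 and -0.67), and Psmb5 and Psmd9 did not pass (0.83 and 0.34). A match of letters is a description and not a bound site.

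Of the immunoproteasome subunits, Psmb10 rose with pressure overload in control hearts. Psmb10 had 94.3, 104 and 82.7 normalized counts in the 3 Ctrl-Sham libraries, 214, 184 and 170.1 in Ctrl-TAC, 107, 87.6 and 127 in CIP-OE-Sham and 128, 122 and 124 in CIP-OE-TAC. It encodes the immunoproteasome's trypsin-like subunit, the counterpart of Psmb7. The Ctrl-TAC values overlapped no other group, and the CIP-OE-TAC values lay between them and the Ctrl-Sham values. The rise in Ctrl-TAC (log2 fold change 1.01 ± 0.16 (SE), adjusted p = 8.95e-05) corresponds to a 2.01-fold change on this scale. This rise was smaller after the correction for GC content, which was 56.52% for Psmb10. With length corrected as well it was not called. Within CIP-OE hearts the change of Psmb10 with TAC was not called, and the values overlapped. In CIP-OE-TAC hearts Psmb10 was lower than in Ctrl-TAC hearts (log2 fold change -0.59 ± 0.16 (SE), adjusted p = 0.0164), and this call ended without Ctrl_TAC_3586 (adjusted p = 0.0764) or KI_TAC_3579 (adjusted p = 0.0592).

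The normalized counts of Psmb8 were 39.7, 55.0 and 36.0 in Ctrl-Sham, 81.3, 55.9 and 39.1 in Ctrl-TAC, 55.4, 25.9 and 36.9 in CIP-OE-Sham and 27.3, 39.4 and 34.8 in CIP-OE-TAC. For Psmb9, the Ctrl-Sham hearts gave 29.8, 11.2 and 23.3 normalized counts, the Ctrl-TAC hearts 40.6, 29.2 and 29.5, the CIP-OE-Sham hearts 22.2, 21.6 and 22.1 and the CIP-OE-TAC hearts 28.4, 15.002 and 13.2. These counterparts of Psmb5 and Psmb6 were low throughout, and both overlapped between Ctrl-TAC and Ctrl-Sham. Psmb8 gave a log2 fold change of 0.38 ± 0.30 (SE, adjusted p = 0.31) and Psmb9 one of 0.69 ± 0.35 (adjusted p = 0.122). For CIP-OE-TAC against Ctrl-TAC they gave -0.73 (Psmb8, adjusted p = 0.0892) and -0.84 (Psmb9, adjusted p = 0.0987), and the Psmb9 values did not overlap. Psmb8 passed without Ctrl_TAC_4231 (-0.99, adjusted p = 0.0308), and Psmb9 passed without KI_TAC_3577 (-1.16, adjusted p = 0.0447).

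Leukocytes are known to express the immunoproteasome at high levels, so their markers stand beside these values. The 9 leukocyte markers summed to 948 to 1422 normalized counts in the Ctrl-Sham libraries and 1009 to 1678 in the Ctrl-TAC libraries. In CIP-OE hearts they summed to 757 to 997 after sham surgery and 1069.8 to 1394 after TAC. The log2 fold changes of the 7 tested markers ranged from -0.62 (Ptprc) to 0.33 (Laptm5) in Ctrl-TAC against Ctrl-Sham, and none passed. The ranges of the summed levels overlapped between Ctrl-Sham and each other group and between the TAC groups. All CIP-OE-Sham sums lay below those of both TAC groups. The markers' part in the Psmb10 values was not tested. Of 14 interferon and antigen processing genes, 1 rose (Tapbp, which helps load peptides on class I molecules) and 2 fell (Gbp3 and Igtp, interferon-induced GTPases) in Ctrl-TAC against Ctrl-Sham, with a median log2 fold change of -0.15, shares below the 20.7% and 20.2% of all genes. The Gbp3 call ended in 5 of the 12 fits that left out 1 library, with adjusted p up to 0.129 without Ctrl_Sham_4033. With GC content corrected the calls were others: B2m, the light chain of class I molecules, was higher (1.005, adjusted p = 0.0265), the peptide transporter subunit Tap2 (-0.58, adjusted p = 0.00805) and Igtp (-0.99, adjusted p = 0.0102) were lower, and Tapbp (-0.04, adjusted p = 0.832) and Gbp3 (-0.43, adjusted p = 0.206) did not pass. In CIP-OE-TAC against Ctrl-TAC, 2 of the 14 were lower (Tapbp and Ifit3, an interferon-induced antiviral gene) and none higher, where 9.27% and 9.11% of all genes passed. Of these, Ifit3 was still called after the correction (-1.21, adjusted p = 0.034) and Tapbp was not (-0.09, adjusted p = 0.755). Without the correction, each call ended in 2 of the 12 fits that left out 1 library. The adjusted p then reached 0.102 for Ifit3 and 0.0891 for Tapbp. Ifit3 was also lower in CIP-OE-Sham than in Ctrl-Sham, without passing (-1.585, adjusted p = 0.0766).

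**Figure D2:**
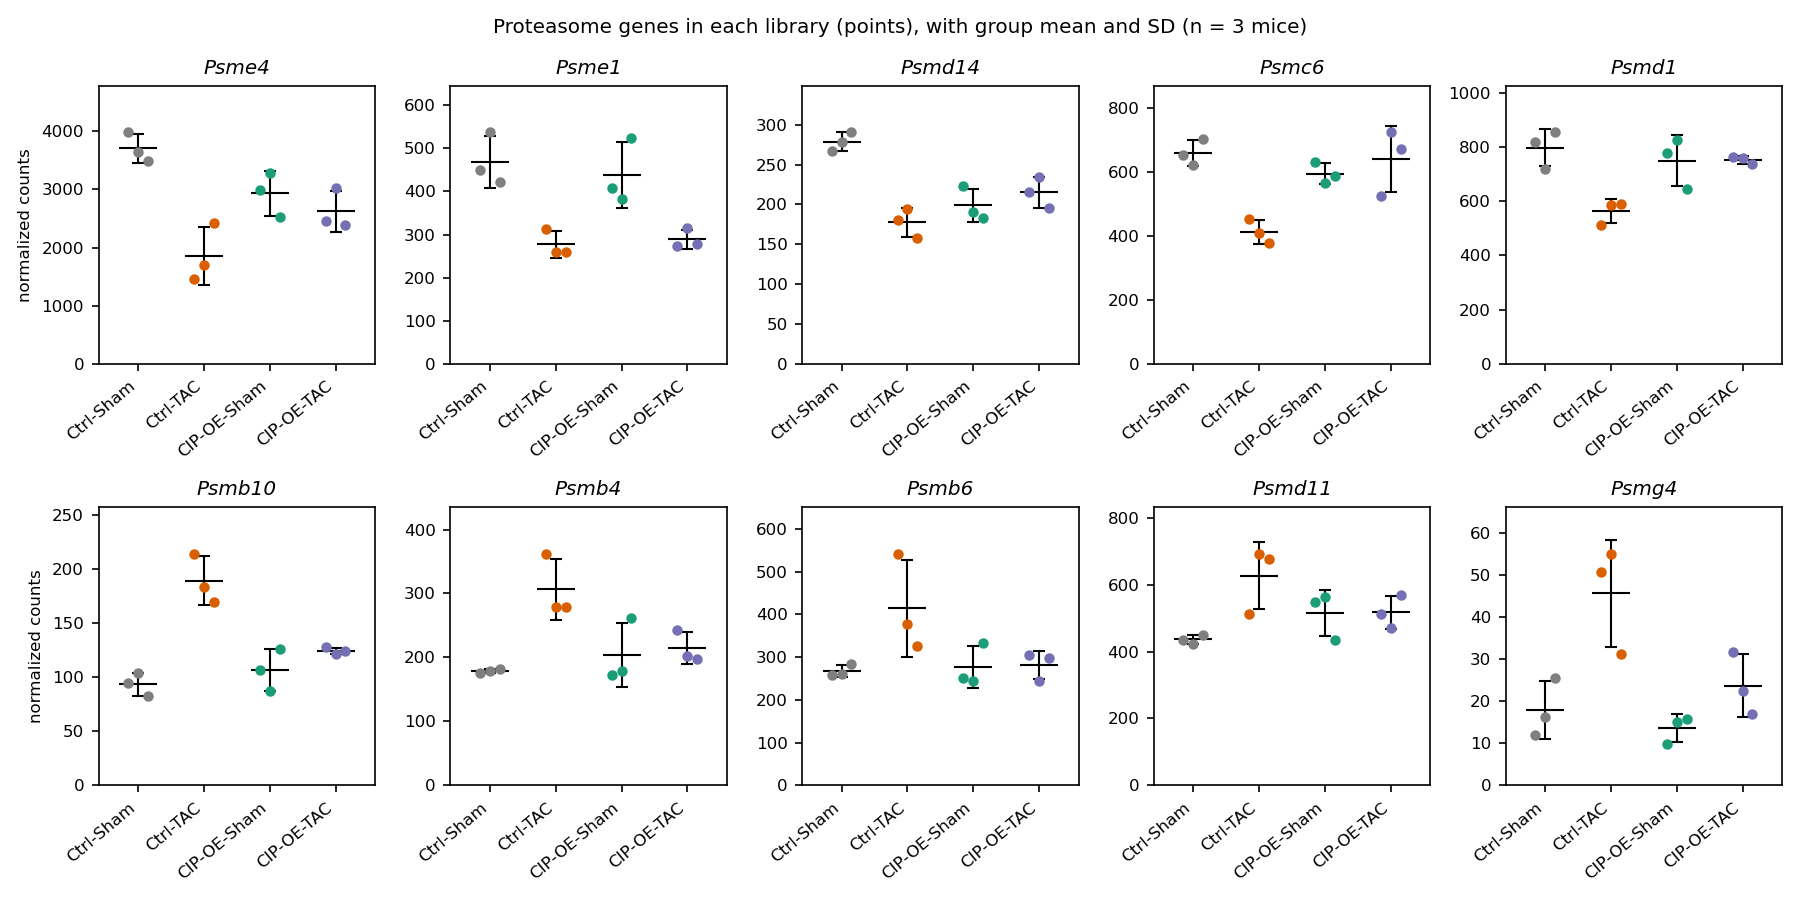
Normalized counts (vertical axes, each from 0) of 10 proteasome genes in each library by group, with the group mean and SD (n = 3 mice). The upper row shows the 5 largest falls in Ctrl-TAC, where Psme4 went from a range of 3485 to 3982 in Ctrl-Sham to one of 1451 to 2421, and the lower row the 5 largest rises.

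Among the activators, Psme4 and Psme1 fell in Ctrl-TAC. Psme4 had 3982, 3644.5 and 3485 normalized counts in the 3 Ctrl-Sham libraries, 1451, 1695 and 2421 in Ctrl-TAC, 2995, 3278 and 2517 in CIP-OE-Sham and 2454, 3030.4 and 2383 in CIP-OE-TAC. The highest Ctrl-TAC value, from Ctrl_TAC_4231, lay below every Ctrl-Sham value but inside the range of CIP-OE-TAC. Psme4 had the most negative log2 fold change among the members called (log2 fold change -1.03 ± 0.16 (SE), adjusted p = 7.94e-05), and its level per kilobase in Ctrl-TAC was 221 ± 60.2 normalized counts. In CIP-OE-TAC it was higher than in Ctrl-TAC (log2 fold change 0.52 ± 0.16 (SE), adjusted p = 0.0307) although the groups overlapped, and this call ended in 4 of the 12 fits that left out 1 library, with adjusted p up to 0.146 without KI_TAC_3579.

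The promoter of Psme4 holds the letters CCGGAAGT, a core recognized by ETS factors, which were found in 5 of 40 members (12.5%) and in 2.88% of all windows. Each stretch is 30 bases on the strand that carries the letters, which are in capitals, and the stretches are shown because they were found in the member with the deepest fall:
Psmc2: cgagccccatcCCGGAAGTgctcactggtc
Psme4: gtggccccgccCCGGAAGTgacttgaggcc
Psmd12: cgtcactcgcaCCGGAAGTcgcccgctcat
Psmc1: aatcgccaccgCCGGAAGTgcatccaccaa
Psmd6: cagagacgcgaCCGGAAGTcagactggcgg

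They lie at chr5:21785179-21785208 (Psmc2, minus strand), chr11:30771711-30771740 (Psme4, plus strand), chr11:107479499-107479528 (Psmd12, minus strand), chr12:100110162-100110191 (Psmc1, minus strand), chr14:14120972-14121001 (Psmd6, minus strand). In Ctrl-TAC against Ctrl-Sham their log2 fold changes ran from -1.03 (Psme4) to -0.02 ± 0.13 (Psmc2), and 2 of the 5, Psme4 and Psmd12, passed as lower, where 20.2% of all genes did. After the GC correction Psme4 was called lower, Psmd12 was not called (-0.24, adjusted p = 0.143) and Psmc2 was called higher (0.50, adjusted p = 0.01085), so the 5 shared no direction. The interferon-stimulated response element, written as GAAA, any 2 bases and GAAA, was in 3 of 40 members (7.5%, against 2.98% of all windows) and the CCAAT box in 14 (35.0% against 33.85%).

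The normalized counts of Psme1 were 449, 537 and 422 in Ctrl-Sham, 313, 259 and 260.4 in Ctrl-TAC, 408, 382 and 525 in CIP-OE-Sham and 274, 315 and 278 in CIP-OE-TAC. Psme1 and Psme2 encode the alpha and beta subunits of PA28, the ring-shaped activator that interferon induces together with the immunoproteasome. The values of both TAC groups lay below those of both sham groups. Psme1 fell in Ctrl-TAC against Ctrl-Sham (log2 fold change -0.76 ± 0.14 (SE), adjusted p = 0.00037), and the difference between the genotypes under TAC was within its error (log2 fold change 0.06 ± 0.14 (SE), adjusted p = 0.797). It was the one member called between CIP-OE-TAC and CIP-OE-Sham (log2 fold change -0.59 ± 0.14 (SE), adjusted p = 0.0468), where 1.26% of all genes passed, and this call ended in 7 of the 12 fits that left out 1 library, with adjusted p up to 0.2 without KI_Sham_3737. It was also lower in CIP-OE-TAC than in Ctrl-Sham (log2 fold change -0.69 ± 0.14 (SE), adjusted p = 0.00796).

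For Psme2, the Ctrl-Sham hearts gave 63.5, 46.8 and 37.1 normalized counts, the Ctrl-TAC hearts 43.4, 34.8 and 37.3, the CIP-OE-Sham hearts 56.6, 44.3 and 42.2 and the CIP-OE-TAC hearts 60.1, 42.2 and 42.3. Psme2 was far lower than Psme1 per kilobase (27.9 against 212 normalized counts in Ctrl-Sham), and its groups overlapped (log2 fold change -0.32 ± 0.24 (SE), adjusted p = 0.303). Psme3 had 481, 509 and 505 normalized counts in the 3 Ctrl-Sham libraries, 501, 626 and 569 in Ctrl-TAC, 515, 517 and 493 in CIP-OE-Sham and 528, 566 and 491 in CIP-OE-TAC. Psme3 encodes PA28 gamma, the nuclear relative of these subunits, and did not pass (log2 fold change 0.18 ± 0.12 (SE), adjusted p = 0.2435). The inhibitor PI31, encoded by Psmf1, did not pass either (log2 fold change -0.10 ± 0.15 (SE), adjusted p = 0.641). Over the 4 activators and the inhibitor the median log2 fold change was -0.32 for Ctrl-TAC against Ctrl-Sham (-0.60 after the GC correction) and 0.06 for CIP-OE-TAC against Ctrl-TAC.

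In the ATPase ring of the regulatory particle, 1 of 6 genes rose and 1 fell after TAC in control hearts. Among all genes tested, 20.7% rose and 20.2% fell. Psmc6 had 653, 623 and 704 normalized counts in the 3 Ctrl-Sham libraries, 453, 409 and 378 in Ctrl-TAC, 632, 567 and 587 in CIP-OE-Sham and 526, 725 and 674 in CIP-OE-TAC. The Ctrl-TAC values of Psmc6 lay below those of all other groups. It fell in Ctrl-TAC (log2 fold change -0.67 ± 0.13 (SE), adjusted p = 0.0005045), and was higher in CIP-OE-TAC than in Ctrl-TAC (log2 fold change 0.62 ± 0.13 (SE), adjusted p = 0.00451), a call that every fit without 1 library kept. Psmc4 rose (log2 fold change 0.38 ± 0.13 (SE), adjusted p = 0.02765), and this call ended without Ctrl_TAC_3586 (adjusted p = 0.156), Ctrl_Sham_4033 (adjusted p = 0.08075) or Ctrl_Sham_4011 (adjusted p = 0.0636). The other 4 ATPases had log2 fold changes between -0.22 (Psmc1) and 0.10 (Psmc3). The median of the ring was 0.02 (-0.10 after the GC correction), and -0.06 for CIP-OE-TAC against Ctrl-TAC.

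Among the 11 non-ATPase subunits of the regulatory particle, 2 rose and 3 fell, against 20.7% and 20.2% of all genes. The normalized counts of Psmd14 were 267, 279 and 290.5 in Ctrl-Sham, 180.1, 195 and 158 in Ctrl-TAC, 223, 190.3 and 183 in CIP-OE-Sham and 216, 234 and 195 in CIP-OE-TAC. Psmd14 is the deubiquitinase that removes ubiquitin chains as the substrate enters. Its Ctrl-Sham values lay above those of all other groups, and the fall in Ctrl-TAC passed (log2 fold change -0.65 ± 0.13 (SE), adjusted p = 0.000791). For Psmd1, the Ctrl-Sham hearts gave 819, 719.5 and 853 normalized counts, the Ctrl-TAC hearts 511, 587 and 589, the CIP-OE-Sham hearts 776, 825 and 644 and the CIP-OE-TAC hearts 761, 760.4 and 735. The Ctrl-TAC values of Psmd1, a large scaffold subunit, lay below those of all other groups. It fell in Ctrl-TAC (log2 fold change -0.50 ± 0.13 (SE), adjusted p = 0.00353) and was higher in CIP-OE-TAC than in Ctrl-TAC (log2 fold change 0.42 ± 0.13 (SE), adjusted p = 0.025). The latter call ended in 4 of the 12 fits that left out 1 library, with adjusted p up to 0.08345 without Ctrl_TAC_3586.

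Psmd11 had 434, 423 and 451 normalized counts in the 3 Ctrl-Sham libraries, 511, 692 and 675 in Ctrl-TAC, 547, 562 and 435 in CIP-OE-Sham and 513, 471 and 569 in CIP-OE-TAC. Psmd11 is a lid subunit known in human stem cells for promoting assembly of the full proteasome. Its Ctrl-TAC values were above all Ctrl-Sham values, with Ctrl_TAC_3586 the lowest of the 3 (log2 fold change 0.51 ± 0.14 (SE), adjusted p = 0.00695). Psmd8, another lid subunit, rose likewise (log2 fold change 0.51 ± 0.13 (SE), adjusted p = 0.00504). Psmd12, also of the lid, fell (log2 fold change -0.32 ± 0.12 (SE), adjusted p = 0.0416), and this call ended in 7 of the 12 fits that left out 1 library, with adjusted p up to 0.16 without Ctrl_Sham_4010. None of Psmd14, Psmd11, Psmd8 and Psmd12 passed in CIP-OE-TAC against Ctrl-TAC. The ubiquitin receptors Psmd2 and Psmd4 passed in neither comparison, with log2 fold changes of 0.19 and 0.35 after TAC in control hearts, and Psmd4 passed without Ctrl_TAC_3800 (0.53, adjusted p = 0.00738). The median over the 11 subunits was 0.19 in Ctrl-TAC against Ctrl-Sham (-0.11 after the GC correction, so it turned) and 0.095 in CIP-OE-TAC against Ctrl-TAC.

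Of the 8 genes of the alpha ring, which gates the core, Psma1 fell (log2 fold change -0.40 ± 0.13 (SE), adjusted p = 0.0163), and this call ended without Ctrl_TAC_4231 (adjusted p = 0.0848) or Ctrl_Sham_4033 (adjusted p = 0.0694). The other 7 did not pass, with log2 fold changes from -0.89 (Psma8) to 0.84 (Psma5, adjusted p = 0.0558). Of all genes tested, 20.7% rose and 20.2% fell. Psma5 varied widely within Ctrl-TAC, with 133, 205 and 59.0 normalized counts, and Psma5 passed without Ctrl_TAC_4231 (1.33, adjusted p = 0.000251). The median of the ring was -0.30 after TAC in control hearts (0.02 after the GC correction) and 0.11 for CIP-OE-TAC against Ctrl-TAC.

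Dedicated chaperones assemble the core and the regulatory particle. Psmg4 had 11.9, 16.3 and 25.4 normalized counts in the 3 Ctrl-Sham libraries, 50.8, 55.1 and 31.2 in Ctrl-TAC, 9.85, 15.1 and 15.8 in CIP-OE-Sham and 31.7, 22.5 and 16.9 in CIP-OE-TAC. Psmg4, which with Psmg3 guides alpha ring assembly, had the highest log2 fold change of the members called (log2 fold change 1.33 ± 0.34 (SE), adjusted p = 0.0044), from low counts. Its lowest Ctrl-TAC value, from Ctrl_TAC_4231, was above the highest Ctrl-Sham value. Psmg1, Psmg2 and Psmg3 did not pass, and neither did the regulatory particle chaperones Psmd5 (-0.36) and Psmd9 (0.34). All 4 core chaperones had negative log2 fold changes in CIP-OE-TAC against Ctrl-TAC, between -0.92 (Psmg4, adjusted p = 0.0653) and -0.19 (Psmg1), and none passed. Psmg4 passed without Ctrl_TAC_4231 (-1.17, adjusted p = 0.0342).

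By class, 2 of the 15 core genes rose and 1 fell in Ctrl-TAC against Ctrl-Sham, with a median log2 fold change of 0.07. Of the 17 regulatory particle genes, 3 rose and 4 fell (median 0.05), and of the 3 tested immunoproteasome genes 1 rose (median 0.69), against 40.9% of all genes passing in either direction. After the GC correction the medians were 0.23 for the core, -0.11 for the regulatory particle and 0.297 for the immunoproteasome genes. The core means in all ratios that follow left out the testis subunit Psma8. The mean per-kilobase level of the regulatory particle subunits divided by that of the core subunits was 1.01, 1.07 and 1.01 in the Ctrl-Sham libraries, 0.907, 0.921 and 1.06 in Ctrl-TAC, 1.0044, 1.16 and 0.958 in CIP-OE-Sham and 1.03, 1.07 and 1.06 in CIP-OE-TAC, and all 4 groups overlapped. The ratio of the summed per-kilobase levels of the 3 immunoproteasome subunits to their 3 constitutive counterparts was 0.22, 0.263 and 0.224 in the Ctrl-Sham libraries, 0.312, 0.356 and 0.345 in Ctrl-TAC, 0.25, 0.201 and 0.217 in CIP-OE-Sham and 0.248, 0.267 and 0.243 in CIP-OE-TAC. All 3 Ctrl-TAC values were above the other 9.

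Among the single pairs, the ratio of Psmb10 to Psmb7 per kilobase also placed Ctrl-TAC above all other libraries, with 0.369, 0.467 and 0.394 in the Ctrl-Sham libraries, 0.993, 0.89 and 0.762 in Ctrl-TAC, 0.374, 0.332 and 0.424 in CIP-OE-Sham and 0.496, 0.436 and 0.475 in CIP-OE-TAC. The ratios of Psmb8 to Psmb5 and of Psmb9 to Psmb6 overlapped between Ctrl-TAC and each other group. All these class and pair ratios used values not corrected for GC content, which was 56.52% for Psmb10 and 40.79% for Psmb7. Per-kilobase Psme4 relative to the mean of the core genes was 3.67, 3.61 and 3.35 in the Ctrl-Sham libraries, 1.10, 1.55 and 2.42 in Ctrl-TAC, 2.89, 3.61 and 2.31 in CIP-OE-Sham and 2.35, 3.03 and 2.24 in CIP-OE-TAC. Every Ctrl-TAC library was below every Ctrl-Sham library, and the highest of them exceeded the lowest of both CIP-OE groups. The mean per-kilobase level of the PA28 genes Psme1 and Psme2 was also divided by the core mean. This ratio was 0.925, 1.12 and 0.854 in the Ctrl-Sham libraries and 0.529, 0.525 and 0.582 in Ctrl-TAC. In CIP-OE-Sham it was 0.875, 0.913 and 1.01, and in CIP-OE-TAC 0.636, 0.698 and 0.59. Here both TAC groups were below both sham groups without overlap. Most of this ratio came from Psme1, at 212 normalized counts per kilobase in Ctrl-Sham against 27.9 for Psme2. The values of Psme2 alone overlapped between the groups.

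**Figure D3:**
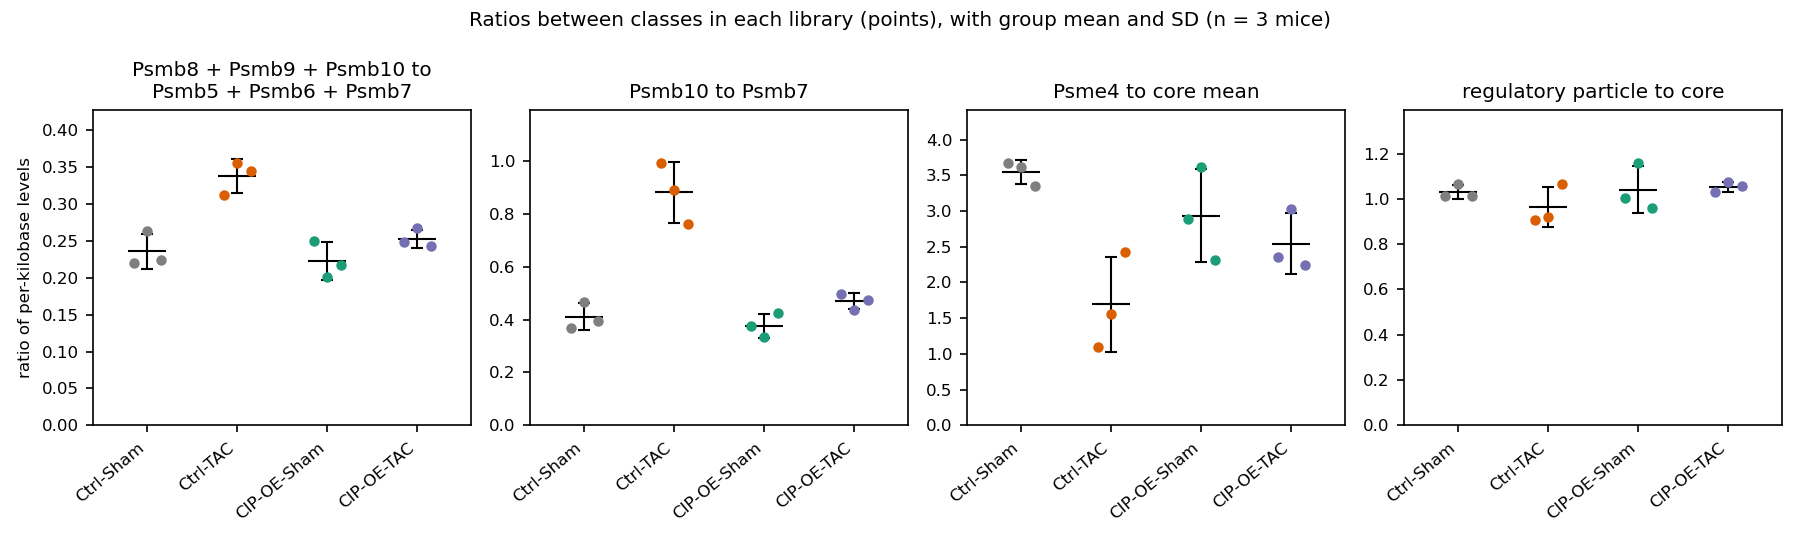
Ratios of per-kilobase levels without the GC correction (vertical axes, each from 0) in each library by group, with the group mean and SD (n = 3 mice). The ratio of immunoproteasome to constitutive subunits and that of Psmb10 to Psmb7 were highest in the 3 Ctrl-TAC libraries, Psme4 relative to the core was lower there than in Ctrl-Sham, and the ratio of regulatory particle to core overlapped between the 4 groups.

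The members that moved differed in base composition, as did the Ctrl-TAC libraries. The 7 genes that rose in Ctrl-TAC had a median GC content of 52.3% over their longest transcript and the 7 that fell one of 43.96%. Over the 46 members, GC content and log2 fold change had a Spearman correlation of 0.545 (all points share the 6 libraries), and over 13238 genes one of 0.642. For CIP-OE-TAC against Ctrl-TAC the values were -0.534 and -0.655. Psme1 and Psmd11 went against this slope: at 56.2% GC Psme1 fell, and at 39.9% GC Psmd11 rose.

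With each library's deviations corrected for GC content by a smooth curve, 10 members were called in Ctrl-TAC against Ctrl-Sham, 5 higher and 5 lower, where 21.1% of the 13238 genes passed. Psme1 then fell by 1.32 on the log2 scale (adjusted p = 1.93e-06) and Psmd11 rose by 1.08 (adjusted p = 1.78e-05). Psme4 still fell, at -0.65 (adjusted p = 0.0051), as did Psmd1 at -0.35 (adjusted p = 0.0367). Psmb4 and Psmb10 still rose, at 0.53 (adjusted p = 0.01545) and 0.42 (adjusted p = 0.0455). Psmb7 was now called higher at 0.46 (adjusted p = 0.00976), so that Psmb10 and Psmb7 had corrected changes of similar size. The higher ratio of Psmb10 to Psmb7 in Ctrl-TAC, taken on uncorrected values, is not matched by these corrected changes. With length corrected as well, Psmb10 was not called (0.37, adjusted p = 0.0604).

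The corrected calls of the other 8 members were lost. Psmc6 gave -0.04 (adjusted p = 0.839), Psmd14 -0.23 (adjusted p = 0.199), Psma1 -0.03 (adjusted p = 0.902), Psmd12 -0.24 (adjusted p = 0.143), Psmb6 0.42 (adjusted p = 0.067), Psmd8 0.24 (adjusted p = 0.178), Psmc4 0.15 (adjusted p = 0.429) and Psmg4 0.85 (adjusted p = 0.082). The ATPases Psmc2 (0.50, adjusted p = 0.01085) and Psmc3 (-0.38, adjusted p = 0.0186) and the alpha subunit Psma7 (-0.71, adjusted p = 0.0017) were called only after correction. For CIP-OE-TAC against Ctrl-TAC none of the 7 calls remained. Psmd11 was the one member called there, at -0.69 (adjusted p = 0.00504), where 3.31% of the 13238 genes passed. GC profile and the Ctrl-TAC group cannot be told apart.

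**Figure D4:**
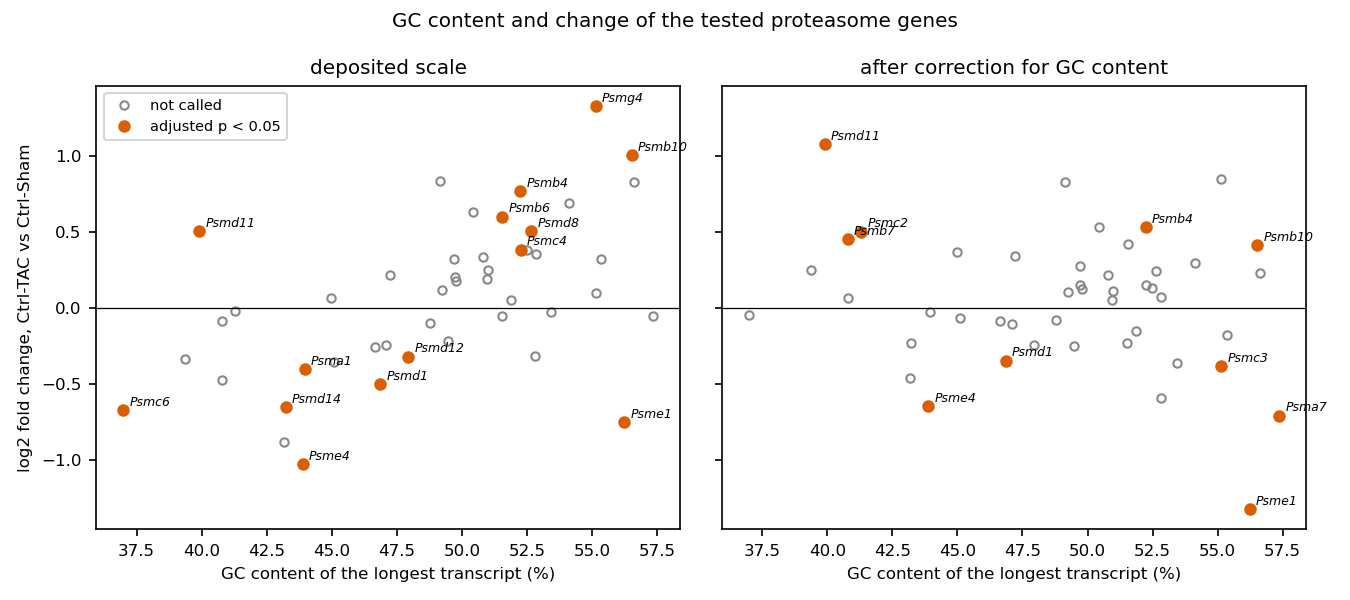
GC content of the longest transcript (horizontal axis, percent) against the log2 fold change in Ctrl-TAC against Ctrl-Sham (vertical axis) of the tested proteasome genes, on the deposited scale (left) and after correction for GC content (right). Filled, named points passed an adjusted p of 0.05, 14 on the left and 10 on the right, and Psme1 at high GC and Psmd11 at low GC lie far from the slope of the left panel.

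Some members share exons with another gene, and whether reads were counted by strand is unknown from the sources at hand. Among those named above, Psme1 overlaps Emc9, Psmd1 overlaps Htr2b, Psmb7 overlaps Nek6 and Psmb8 overlaps Gm20496 on the opposite strand. Psmb9 likewise overlaps Tap1, Psma5 overlaps 1700010K24Rik, Psmc3 overlaps Slc39a13 and Psmd9 overlaps Gm26745. On the same strand, Psmd1 overlaps Gm21972, Psmb5 overlaps Mir686 and Psmg3 overlaps Gm26938. Part of the counts of these members may belong to the partner. No such partner was annotated for Psme4 (ENSMUSG00000040850.17, chr11:30771726-30880361, plus strand), Psmb10 (ENSMUSG00000031897.9, chr8:105935735-105938444, minus strand) or Psmd11 (ENSMUSG00000017428.16, chr11:80428615-80473248, plus strand), all in GRCm38.

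Without pressure overload, no proteasome gene passed between CIP-OE-Sham and Ctrl-Sham (limma), where 0.0224% of all genes did. At an unadjusted p under 0.05 there were 5 members, or 10.9%, against 11.2% of all genes. On reads recovered from the table edgeR called 0 members (0.0224% of all genes) and DESeq2 called 1 (0.5% of all genes), Psma6 with an adjusted p of 0.0462. Psma6, an alpha subunit, had 541, 514 and 522 normalized counts in Ctrl-Sham. The CIP-OE-Sham libraries had 410.1, 368 and 359.5, the CIP-OE-TAC libraries 343, 424 and 409.7 and the Ctrl-TAC libraries 466, 430.4 and 421. Both CIP-OE groups and also the Ctrl-TAC group lay below Ctrl-Sham. It passed for CIP-OE-TAC against Ctrl-Sham (log2 fold change -0.43 ± 0.12 (SE), adjusted p = 0.0418), where 2 members passed, the other being Psme1, and 5.62% of all genes did. For Psma6, this call ended in 6 of the 12 fits that left out 1 library, with adjusted p up to 0.214 without KI_TAC_3577.

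The effect of TAC differed between the genotypes in 4 members, or 8.7%, against 11.6% of all genes (interaction term of the same fit), 3 with a higher effect in CIP-OE hearts (5.43% of all genes) and 1 with a lower one (6.18%). The 3 were Psme4 (difference 0.87 ± 0.23 on the log2 scale, adjusted p = 0.0215), Psmc6 (0.77 ± 0.19, adjusted p = 0.0142) and Psmd14 (0.77 ± 0.19, adjusted p = 0.0158), which fell with TAC in control hearts. The other was Psmb10 (-0.78 ± 0.23, adjusted p = 0.0343), which rose there. Within CIP-OE hearts the log2 fold change with TAC was -0.16 for Psme4, 0.10 for Psmc6, 0.12 for Psmd14 and 0.23 for Psmb10, none past the threshold. For Psmd14 and Psme4 the CIP-OE-Sham values already lay below the Ctrl-Sham values (log2 fold changes -0.49 and -0.34, neither past the threshold). For Psme4, the interaction call ended without KI_TAC_3579 (adjusted p = 0.0633), Ctrl_Sham_4010 (adjusted p = 0.0623) or KI_Sham_3737 (adjusted p = 0.059). For Psmb10, it ended in 8 of the 12 fits that left out 1 library, with adjusted p up to 0.09085 without KI_Sham_3737. After the GC correction none of the 4 passed, with adjusted p from 0.338 to 0.746. Psmd11 did then, at -1.06 (adjusted p = 0.00932), where 0.891% of genes passed.

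Around the proteasome, a list of 27 further genes (deubiquitinases, shuttles, regulators and ubiquitin itself, 25 tested) also held genes of both directions after TAC in control hearts, with 6 higher and 7 lower (20.7% and 20.2% of all genes) and a median log2 fold change of 0.04. Ubb, a stress-responsive ubiquitin gene, rose. The normalized counts of Ubb were 205, 225 and 183 in Ctrl-Sham, 707, 721 and 309 in Ctrl-TAC, 265, 219 and 240.4 in CIP-OE-Sham and 300.3, 199.7 and 239 in CIP-OE-TAC. The lowest Ctrl-TAC value of Ubb lay just above the highest value of the other groups (log2 fold change 1.403 ± 0.27 (SE), adjusted p = 0.00159). In CIP-OE-TAC against Ctrl-TAC Ubb was lower (log2 fold change -1.15 ± 0.27 (SE), adjusted p = 0.0142), and this call ended in 2 of the 12 fits that left out 1 library, with adjusted p up to 0.06405 without Ctrl_TAC_3586.

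For Uchl5, the Ctrl-Sham hearts gave 169, 144 and 152 normalized counts, the Ctrl-TAC hearts 73.0, 67.3 and 80.7, the CIP-OE-Sham hearts 124, 119 and 89.6 and the CIP-OE-TAC hearts 97.2, 131 and 125. Uchl5 is a deubiquitinase of the regulatory particle, and its Ctrl-TAC values were below all others (log2 fold change -1.06 ± 0.17 (SE), adjusted p = 9.03e-05). Usp14, the other deubiquitinase that binds the particle, also fell (log2 fold change -0.49 ± 0.14 (SE), adjusted p = 0.00777), and this call ended without Ctrl_Sham_4010 (adjusted p = 0.0524). Ngly1, the glycanase that activates the proteasome regulator Nfe2l1, fell (log2 fold change -0.60 ± 0.14 (SE), adjusted p = 0.00174). Nfe2l1 itself rose (log2 fold change 0.35 ± 0.13 (SE), adjusted p = 0.0372), a call that 3 of the 12 fits lost, with adjusted p up to 0.157 without Ctrl_TAC_4231. In CIP-OE-TAC against Ctrl-TAC, 3 of the 25 were higher and 3 lower (18.4% of all genes passed in either direction), among them Pomp, the chaperone of core maturation (log2 fold change -0.48 ± 0.15 (SE), adjusted p = 0.031), a call lost in 5 of the 12 fits, with adjusted p up to 0.126 without Ctrl_TAC_3586. After the GC correction, the calls that remained in Ctrl-TAC against Ctrl-Sham were the rises of Ubb (1.01, adjusted p = 0.0169) and of the shuttle Ubqln4 (0.48, adjusted p = 0.0176) and the fall of Uchl5 (-0.47, adjusted p = 0.039). Between the genotypes under TAC, Ubb (-0.90, adjusted p = 0.0923) and Pomp (-0.48, adjusted p = 0.0788) were then not called.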

How the data were processed

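Total RNA from 12 mouse hearts was extracted with Trizol and sequenced on a BGIseq instrument. The values are a signal, gene read counts that the authors divided by a size factor per library before they deposited them. For alignment, counting and scaling, STAR, featureCounts and DESeq2 (mm10) are given in the study's methods, whereas HISAT2 2.0.4, StringTie 2.1.4, DESeq2 1.4.5 and GRCm38 stand in the submitters' processing notes. Annotation release and strand use: not given in the sources used here.

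Of 54515 rows, 633 exact duplicates were removed. Genes with at least 10 normalized counts in at least 3 libraries were tested on log2(value + 1) with limma 3.58.1 (R 4.3.3, trended variance, 1 fit over the 4 groups), with Benjamini-Hochberg adjustment at 0.05. Adding 1 makes the fold changes of low genes too small. Multiplying each value by its library's size factor (0.81 to 1.231) gave whole reads for 100% of values (tolerance 0.001), on which DESeq2 1.42.0 and edgeR 4.0.16 served as alternative tests. Replicate pairs differed by more than counting noise (chi-square per degree of freedom 3.774 to 23.056), and the labels number 3 mice per group. With 3 samples per group, the limma p-values rest on a spread between mice shared by the 4 groups and drawn toward a trend over genes. They do not measure the spread of the compared groups alone. Replicate pairs differed by 13.052 to 23.056 in Ctrl-TAC and by 3.774 to 5.291 in Ctrl-Sham (chi-square per degree of freedom).

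Levels per kilobase used the union of exons in GENCODE M21 (GRCm38), and GC content the longest transcript, which 98.85% of the genes tested had. On simulated data for Ctrl-TAC against Ctrl-Sham over 13392 genes, limma recovered 55% of genes changed 2-fold and 94% of those changed 4-fold, with 5.7% of its calls false. The simulated libraries had no GC difference between groups, and a far smaller share of genes was changed than was called here. These rates therefore do not measure the false calls among the genes named above.

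The members, gene lists and tests were chosen with earlier results of these data known. The genes named with all values are the catalytic and immunoproteasome subunits, the activators, the 5 largest rises and 5 largest falls among members called in each of the comparisons Ctrl-TAC against Ctrl-Sham and CIP-OE-TAC against Ctrl-TAC, plus up to 5 members called in the interaction. Psma5, Psma6 and the genes of the other lists were named after their values were seen. Promoter windows came from RefSeq. Alternatives were other scalings, filters, pseudocounts, variance models and tools, corrections for GC content and length, and leaving out each library.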

Additional observations from a re-analysis of the deposited data

Results flagged for a closer look

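In 4 proteasome genes the effect of TAC differed between the genotypes by the interaction term of the limma fit. The log2 effect of TAC in CIP-OE hearts minus that in control hearts was 0.87 for Psme4, the PA200 activator. It was 0.77 for Psmc6, an ATPase of the regulatory particle, and 0.77 for the deubiquitinase Psmd14. For the immunoproteasome subunit Psmb10 the difference was -0.78. These are 8.7% of the members tested, against 11.6% of all genes, and after the GC correction none of the 4 passed. Leaving out 1 library ended the Psmb10 call in 8 of the 12 fits and the Psme4 call in 3. With 3 mice in each group, no search for single libraries that stand apart was made.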

How the results depend on the processing

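The alternatives were run on 41 fold changes of named members, not on those of every member. Over these, 895 values kept their direction and side of the threshold, 138 lost a call, 5 gained one and 6 changed sign. In Ctrl-TAC against Ctrl-Sham, 14 members were called, 9 with a correction for GC content and length and 8 with a fold change over 1.5 required. Leaving out 1 library gave 11 to 16. In CIP-OE-TAC against Ctrl-TAC the 7 calls became 2 in limma without a variance trend, 4 with only these groups in the fit, 1 after the GC correction, 2 after the correction for GC content and length and 3 above a fold change of 1.5. Leaving out 1 library gave 2 (without Ctrl_TAC_3586 or KI_TAC_3579) to 10. For CIP-OE-Sham against Ctrl-Sham DESeq2 called 1 member in place of 0. The 1 call between CIP-OE-TAC and CIP-OE-Sham became 0 under quantile normalization, under totals without mitochondrial and the top 20 genes and without a variance trend, and leaving out 1 library gave 0 to 1. For CIP-OE-TAC against Ctrl-Sham the 2 calls became 0 without a variance trend, 4 with only these groups, and 1 without a filter, under quantile normalization, under either correction and above a fold change of 1.5, and leaving out 1 library gave 1 to 3. The 4 interaction calls became 1 without a variance trend and under either correction, and leaving out 1 library gave 2 (without Ctrl_Sham_4010, KI_Sham_3737 or KI_TAC_3579) to 7 (without Ctrl_TAC_4231).

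Among these fold changes, those that changed sign had not been called. Over all members, the GC correction turned the sign of 7 in Ctrl-TAC against Ctrl-Sham, none called before it and 3 after (Psmb7, Psmc2 and Psmc3), and of 12 in CIP-OE-TAC against Ctrl-TAC, none called. Psmb7 in Ctrl-TAC against Ctrl-Sham was 0.46 after the GC correction and 0.45 with length added, and between the genotypes under TAC -0.0936 and -0.0655. Psmb5 in CIP-OE-TAC against Ctrl-TAC was 0.0471 with GC content and length corrected. Psme1 in the same comparison ranged from -0.000608 (without KI_TAC_3579) to 0.15 (without Ctrl_TAC_3586). Apart from the corrections themselves, the causes were not tested. No paired analysis was possible because the groups share no animal numbers. With 3 hearts a group, the low members (Psmb5, Psmb8, Psmb9, Psmg3, Psmg4 and Psma8) carry wide errors, and a member that did not pass is not shown to be equal between groups.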
